A study of Mus musculus with 14 samples.

Results

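The cytosolic ribosomal protein genes encode the protein part of the ribosome that translates nuclear-encoded messenger RNA. Members were taken by name, from the genes assigned to the array probes: symbols of Rpl or Rps and a number, with an optional final a, x or y, together with Rplp0, Rplp1, Rplp2 and Rpsa. Kinases of the Rps6k family, pseudogenes and like-named paralogs stayed out. The rule gave 57 genes, 35 of the large and 22 of the small ribosomal subunit, read by 74 probes, out of 16593 genes with a probe.

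The series profiled 14 samples of mouse cells of C57BL background on Illumina bead arrays, in 8 groups. The groups hiEGL2 and hiEGL1, with 2 samples each, are cells like embryonic germ cells that the labels describe as induced by hypoxia and cultured in it. They are called lines here, though the labels do not say what sets them apart. EG cells, 2 samples, are pluripotent embryonic germ cells, the cultured derivatives of primordial germ cells. EG and all remaining groups are labelled as not cultured in hypoxia. PGC11.5, 2 samples, are unipotent primordial germ cells, the embryonic precursors of eggs and sperm, taken at 11.5 days post coitum. Epiblast stem cells (EpiSC) were 1 sample of line T9 and 1 of line E3. Embryonic stem cells (ESC) were 2 samples labelled female (ESCf) and 2 labelled male (ESCm). One label field calls the ESC samples embryonic germ cells, against their titles and the study's design, which are followed here. No label says that replicates were separate cultures. The p-values therefore reflect the scatter among these arrays alone, and that scatter can be technical.

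Each ribosome needs one copy of nearly every ribosomal protein, and cells make these proteins in matched amounts with ribosomal RNA. The large subunit holds the peptidyl transferase centre, the exit tunnel and the stalk of Rplp0, Rplp1 and Rplp2 that recruits translation factors. The small subunit binds messenger RNA and decodes it. Ribosomal protein messenger RNAs of mammals begin with a terminal oligopyrimidine (TOP) tract, through which mTOR signalling and Larp1 control their translation, and factors of the ETS family such as Gabpa bind many of their promoters.

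The starts of the members below are shown because the same kind of tract stands at all of them. Rpl28, Rps27 and Rps10 rose in hiEGL against EG cells, and Rps9 and Rpl35 fell. Rps6 fell in hiEGL1 and had no call in hiEGL2. Rpl38 had no call over both lines by its brighter probe, but was called lower in hiEGL2 alone. Its dimmer probe was called lower over both lines. Rps9 and Rpl35 were picked after their values were seen. The windows run from 18 bases before to 12 bases from the start listed by RefSeq (GRCm38.p6), 5′ to 3′ on the strand of the gene. Capitals mark the unbroken run of C and T that covers the listed start.
Rpl28, chr7:4792947-4792976, plus strand: gtcccgcctctcgtgTCTCTCTTTCCgtct
Rps27, chr3:90213637-90213666, minus strand: aggatttccgctttcgCTCCTTTCCggcgg
Rps10, chr17:27635233-27635262, minus strand: gctgcgccgcgcacgCCCCTTCCTTTCCag
Rps9, chr7:3704023-3704052, plus strand: ccaaccgccttgTCTCTCTTTgtctcgggc
Rpl35, chr2:39005120-39005149, minus strand: agtcggccccgCCCTTTCCTCTTTCTCTCg
Rps6, chr4:86857356-86857385, minus strand: gttaagcggaagtcgggCCTCTTTTTCgtg
Rpl38, chr11:114668562-114668591, plus strand: ggaagcggaagcctcgTTCTTTCCCCgttc

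RefSeq's promoter table holds 48 of the 57 members. Members and all genes differed in how often the tract was found. A run of at least 6 C or T over the listed start, on the sense strand, stood at 17 of these 48 (35.4%), against 8.48% of 27025 genes. The letters CCGGAAG, an ETS-type core, read on either strand within 250 bases before and 50 after the start, were in 19 of 48 (39.6%), against 9.93% of all genes. These are matches of letters in windows and a listed start can lie off the true one.

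Levels are given as log2 of the background-corrected and quantile-normalized intensity. The EG and hiEGL arrays and the other 8 arrays read the members unlike each other. By the probe used for the other arrays, 17 of 57 members were at least 2 log2 units higher on the other 8 arrays, 1 was at least 2 lower and 33 lay within 1 unit. Rpl7a, a large subunit protein, stood at 4.72 and 4.87 in hiEGL2, 4.77 and 4.85 in hiEGL1 and 4.88 and 4.90 in EG, and at 12.06 to 13.32 on the other 8 arrays. Array set and cell type cannot be told apart there, so EG and hiEGL were compared only with each other, and likewise ESC, EpiSC and PGC11.5. A probe entered a comparison when at least 2 arrays of its set detected it at a detection p under 0.01. This kept 50 members of 7226 genes for EG and hiEGL, without Rpl7a, Rpl14, Rpl17, Rpl24, Rplp2, Rps23 and Rpsa. It kept 53 members of 8391 genes for the other groups, without Rpl6, Rpl17, Rplp2 and Rps23.

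Replicates lay close together: the median difference between the 2 samples of a group, over members, was 0.0597 to 0.118 log2 units in the 6 groups with 2 samples. The PGC11.5 pair stood apart over all genes, with 1103 of 8391 genes at least 2-fold apart, against 0 to 10 in the other pairs, and with Rps15a at 7.42 and 5.13. Raw brightness differed too. The median raw signal of the tested members was 1721 and 5277 in PGC11.5, 9030 and 10559 in EpiSC and 22366 to 26955 in ESC, and quantile normalization takes such differences out. On the hiEGL2, hiEGL1 and EG arrays it was 1322 to 1517, 2246 to 2399 and 2797 to 2864.

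The hiEGL cells were first set against EG cells, which asks how cells derived under hypoxia differ from conventional embryonic germ cells. Ribosomal protein genes moved in both directions and by little. Of 50 measured members, 14 rose and 19 fell in hiEGL (66%, limma, Benjamini-Hochberg adjusted p under 0.05 over all genes tested), where 83.5% of all 7226 genes were called, 39.6% higher and 43.9% lower. Where no array of a group detected a probe, its fold was computed as a bound: the brighter group's mean was set against the lowest signal detected on each array of the other, or against the probe's own where that is higher. On that footing no member was called at 2-fold or more by the probe used for it, against 29.3% of all genes. By fitted difference Rpl6 and Rps7 were (4%, against 37.2%). Rps7 was undetected in hiEGL, and Rpl6 was undetected in EG and hiEGL2, so that its rise has no bound above 1. By its dimmer probe, detected on 1 of 4 hiEGL arrays, Rpl38 fell by 1.41 (adjusted p = 1.62e-07). Values at background enter that mean. The median absolute log2 difference was 0.25 over the members and 0.73 over all genes, and the median difference was −0.07 and −0.04. A fit with each line as a random block, so that 2 lines stand against EG, called 4 members lower (Rps3, Rpl27, Rps2 and Rpl22) and 1 higher (Rpl28). The share of all genes called under that fit is not given here, so the smaller count cannot be set against it.

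Among members that rose, Rpl28, a large subunit protein absent from budding yeast, read 13.85 and 13.82 in hiEGL2 and 14.02 and 14.04 in hiEGL1, against 13.20 and 13.22 in EG. All 4 hiEGL samples lay above both EG samples, and the log2 difference was 0.73 ± 0.0504 (SE, adjusted p = 5.06e-09). Rps27, a zinc finger protein of the small subunit, read 9.99 and 9.76 in hiEGL2 and 9.92 and 9.86 in hiEGL1, against 9.36 and 9.44 in EG, a difference of 0.48. Rps19, the gene most often mutated in human Diamond-Blackfan anaemia, read 13.93 and 13.90 in hiEGL2 and 13.82 and 13.92 in hiEGL1, against 13.46 and 13.49 in EG, a difference of 0.42. The groups did not overlap for either gene. Rps10, Rpl34 and Rpl19 rose by 0.48, 0.36 and 0.57 log2 units. Under the random block the adjusted p of Rps27, Rps19, Rps10, Rpl34 and Rpl19 was 0.155, 0.0977, 0.0853, 0.156 and 0.153, while Rpl28 kept its call (0.00881).

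Among members that fell, Rps2, a small subunit protein at the entry channel of the messenger RNA, read 13.23 and 13.11 in hiEGL2 and 12.79 and 12.96 in hiEGL1, against 13.88 and 13.89 in EG. The log2 difference was −0.86 ± 0.0600 (SE, adjusted p = 5.32e-09), and no hiEGL sample reached an EG sample. Rps3, also of the small subunit, read 12.29 and 12.37 in hiEGL2 and 12.51 and 12.26 in hiEGL1, against 13.26 and 13.44 in EG, a difference of −0.99. That call rests on 1 of 2 probes, since the dimmer probe of Rps3 differed by 0.01 (SE 0.0646, adjusted p = 0.888). Rpl27, Rpl22, Rpl4 and Rpl31 fell by 0.88, 0.75, 0.69 and 0.58 log2 units. The second probe of Rpl31 read 9.22 and 9.28 in hiEGL2 and 8.21 and 8.03 in hiEGL1, against 9.14 and 9.07 in EG, so that by this probe only hiEGL1 lay below EG. Rpl22 is an RNA-binding protein with a closely related paralog, and Rpl4 reaches into the exit tunnel. Rps7, a small subunit protein that binds the p53 regulator Mdm2, was not well above background on any hiEGL array and was detected on both EG arrays. It read 4.91 and 5.11 in hiEGL2 and 5.22 and 5.68 in hiEGL1, against 6.56 and 6.64 in EG, so it was at least 1.58-fold lower (adjusted p = 7.51e-07). Under the random block the adjusted p was 0.0563 for Rps7, 0.0570 for Rpl4 and 0.0612 for Rpl31.

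**Figure D1:**
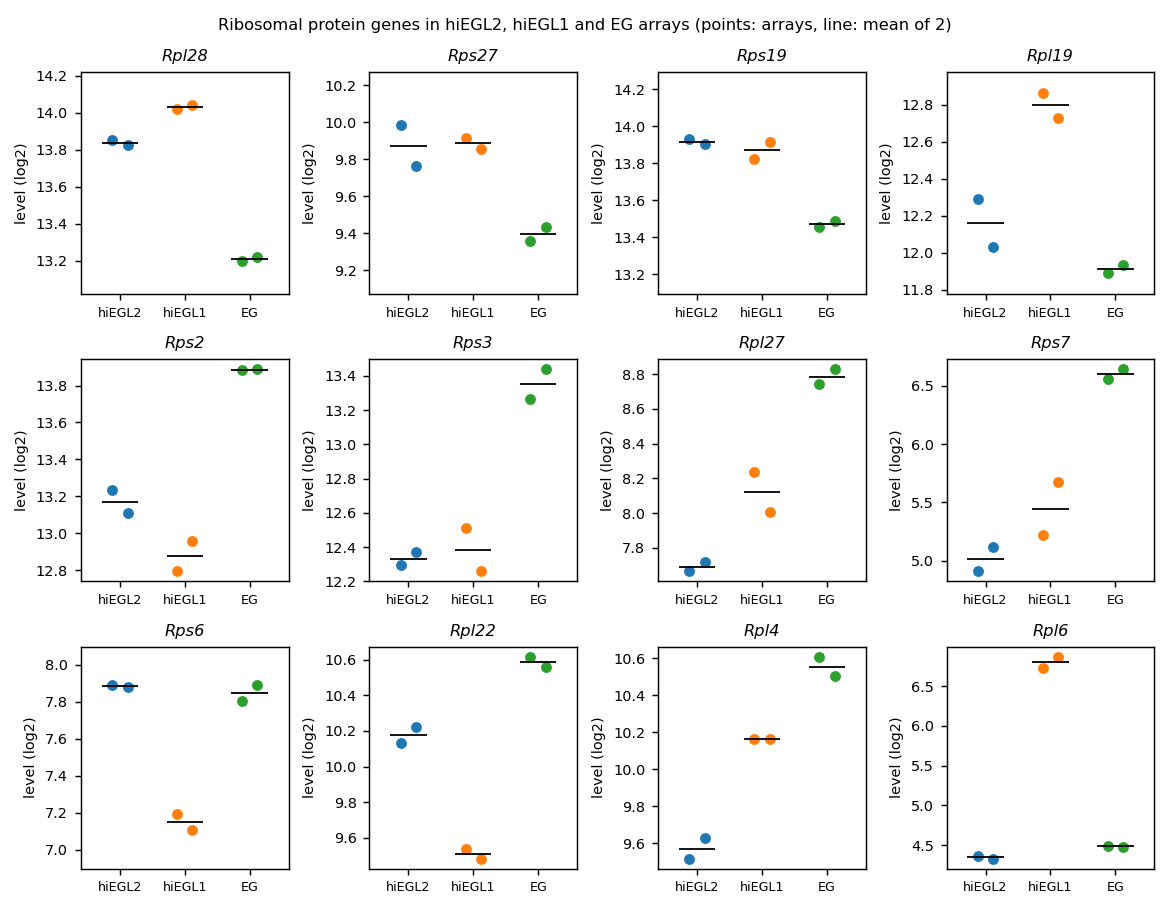
Level (log2) of 12 ribosomal protein genes on each hiEGL2, hiEGL1 and EG array, with points for arrays and a line for the mean of 2. Rpl28, Rps27 and Rps19 lie higher and Rps2, Rps3, Rpl27 and Rps7 lower in both hiEGL lines than in EG, while Rps6, Rpl22, Rpl4 and Rpl6 differ between the lines; each panel has its own axis and levels of different genes are not comparable.

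Several members of central function differed by less than the test could call, by the probe that stood for them in hiEGL against EG. Rplp0, the base of the stalk, read 10.56 and 10.53 in hiEGL2 and 10.73 and 10.72 in hiEGL1, against 10.67 and 10.67 in EG. Its dimmer probe, detected on 3 of 4 hiEGL arrays and both EG arrays, was called lower in hiEGL (−0.30, adjusted p = 0.0242). The mean of its probes was called lower too (−0.17). Rpl3, beside the peptidyl transferase centre, differed by −0.06 (adjusted p = 0.336), and Rpl5, which carries the 5S ribosomal RNA, by −0.07 (0.293). Under scaling to a common median in place of quantiles, Rpl3 read higher in hiEGL (0.16). Rpl38, known in mice for its part in translating Hox messenger RNAs, differed by −0.07 (0.248) by its brighter probe. In hiEGL2 alone Rpl38 was called lower than in EG by that probe (−0.20, adjusted p = 0.00957), a call lost under scaling to a common median. Its dimmer probe was detected on both EG arrays and 1 of 4 hiEGL arrays, and was at least 1.95-fold lower in hiEGL2, where neither array detected it (adjusted p = 1.34e-07). Rpl23 differed by −0.02 by the probe used, while 2 other probes gave 0.59 and 0.89, each called higher, and a dimmer one, undetected in EG, was at least 1.17-fold higher. Of 9 members with at least 2 probes tested, 3 had calls in the same direction by 2 or more probes, none had opposite calls and 6 had fewer than 2 probes called, counting calls of probes that a group did not detect. In hiEGL2 against hiEGL1, 1 of the 9, Rpl23, had opposite calls by its probes.

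Genes that build ribosomes mostly fell. Of 53 measured genes of ribosome assembly, 49 fell and 3 rose in hiEGL, with a median log2 difference of −1.09, where 43.9% of all genes fell. In hiEGL2 alone 47 of 53 fell, and in hiEGL1 alone 48 of 53. The largest falls were Rrp12 (by 2.76), Ddx21, an RNA helicase of ribosomal RNA processing (by 2.42), and Brix1, a factor of large subunit assembly (by 1.91). Of 37 translation factors 26 fell and 4 rose, led by falls of Eif4e2 (2.23), Eif3a (2.17) and Eif2s3x (1.86). Of 26 measured genes of RNA polymerases I and III, the enzymes that make ribosomal and transfer RNA, 21 fell and 1 rose. Gtf3c4 fell 2.17-fold, while Gtf3c6 (at least 1.66-fold lower) and Polr3e (at least 1.10-fold lower) were detected on no hiEGL array. Among paralogs of ribosomal proteins and ubiquitin fusions 5 of 6 fell, with Rpl3l (by 2.92), Rpl7l1 (by 0.76) and Rps27l (by 0.72) in front. Of 15 measured genes of a broad list on the control of ribosomal protein genes 6 rose and 7 fell. Over all genes 39.6% were higher and 43.9% lower. Its largest changes were Cdkn1a (higher by 1.71), Mycl (fell by 1.22) and Gabpa (fell by 1.11). A place on the list does not show that a gene such as Cdkn1a controls ribosomal protein genes. Rpl3l, Mycl and Gabpa were detected on 2 of 4 hiEGL arrays, and their means include values at background.

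Markers of other cells moved with the same groups. Of 12 fibroblast markers 10 to 11 were detected in hiEGL samples and 5 to 6 in EG, with a summed linear level of 13300 to 18630 and 1370 to 1417. Of 10 gonadal somatic markers 3 were detected in each hiEGL sample and 0 to 1 in EG, with sums of 3149 to 3678 and 86 to 110, and Amh and Nr5a1 were detected on none of these arrays. Of 10 blood, endothelial and macrophage markers 6 were detected in hiEGL samples and 2 in EG, with sums of 1136 to 1318 and 235 to 240. Col1a1, a collagen of fibroblasts, was detected on 4 of 4 hiEGL arrays and 0 of 2 EG arrays. Col1a1, Wt1 and Lyz2 were also detected on 4 of 4 ESC arrays, so their detection is not particular to hiEGL. Pluripotency markers summed to 16130 to 22710 in hiEGL and 53360 to 54820 in EG, and Pou5f1 was detected on 3 of 4 hiEGL arrays. Germ cell markers went the other way: of 7 measured, 6 rose and 1 fell, where 39.6% of all genes were higher and 43.9% lower. Their sums were 13120 to 19900 in hiEGL and 6747 to 7189 in EG. The part of these cells in the ribosomal protein differences was not tested. In bulk samples fewer cells of a type and less RNA per cell cannot be told apart.

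Each line was also set against EG on its own. In hiEGL2, 11 members rose and 17 fell (56%), where 82.2% of all genes were called, 38.3% higher and 43.9% lower. In hiEGL1, 13 rose and 18 fell (62%), where 82.1% were called, 40.3% higher and 41.8% lower. The counts at 2-fold or more rest on the probe used for each member. With undetected groups at their bound, 2 members of 50 were so called in hiEGL2, both lower (Rpl27 and Rps3), against 29% of all genes. In hiEGL1 there were 2 lower (Rpl22 and Rps2), against 30.7%. Another probe of Rpl23 was called 2.02-fold higher in hiEGL1 than in EG. Rpl28, Rps10, Rps27, Rps19 and Rpl34 rose in each line, and Rps2, Rps3, Rpl27, Rpl31 and Rpl29 fell in each. For Rpl31 in hiEGL2 that rests on 1 of 2 probes, since the other differed by 0.15 with no call, and the mean of both probes fell by 0.24. Under scaling to a common median 18 members rose in hiEGL2, and without EG replicate 1 the number was 7. The shares of all genes under these alternatives are not given here. Both comparisons with EG use the same EG samples.

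The lines were then set against each other. Of 50 members, 10 were higher and 14 lower in hiEGL2 than in hiEGL1 (48%, against 62.2% of all genes). By subunit, 4 large subunit genes were higher and 13 lower of 30, while 6 small subunit genes were higher and 1 was lower of 20. Over all genes 29.2% were higher and 33.1% lower. At 2-fold or more, with undetected groups at their bound, 5.22% of all genes and no member were called, and by fitted difference 8.86% and Rpl6. Rps7, counted among the lower members, was detected in neither line. The difference between subunits was not tested. Scaling to a common median moved the median of all genes to 0.10 log2 units and the share of higher calls among all called genes from 46.9% to 58.8%, and left 9 members lower and 16 higher, so the balance of directions depends on the scaling. Without hiEGL1 replicate 1, 9 members were lower.

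Rps6, the small subunit protein that S6 kinases phosphorylate, read 7.89 and 7.88 in hiEGL2, against 7.19 and 7.11 in hiEGL1. The difference was 0.74 ± 0.0907 (SE, adjusted p = 9.54e-06), and the EG samples, at 7.80 and 7.89, lay with hiEGL2. The fall of 0.33 over both lines against EG had an adjusted p of 0.475 under the random block. Rpl22 read 10.13 and 10.22 in hiEGL2, against 9.54 and 9.48 in hiEGL1, a difference of 0.67, and both lines lay below EG at 10.62 and 10.56. Rps16 and Rpl39 were higher by 0.55 and 0.45 log2 units. Lower in hiEGL2 was Rpl4, at 9.52 and 9.63, against 10.16 and 10.16 in hiEGL1, a difference of −0.59 (adjusted p = 4.14e-06). Rpl19 and Rpl37a were lower by a similar amount (−0.64 and −0.57). Rpl6 was detected on both hiEGL1 arrays, at 6.73 and 6.87, and on no hiEGL2 array, at 4.37 and 4.33, nor on an EG array, at 4.49 and 4.48. It was at least 1.70-fold lower in hiEGL2 than in hiEGL1 (adjusted p = 3.46e-08). Genes of ribosome assembly split as well, with 17 higher and 24 lower of 53, where 29.2% of all genes were higher and 33.1% lower.

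**Figure D2:**
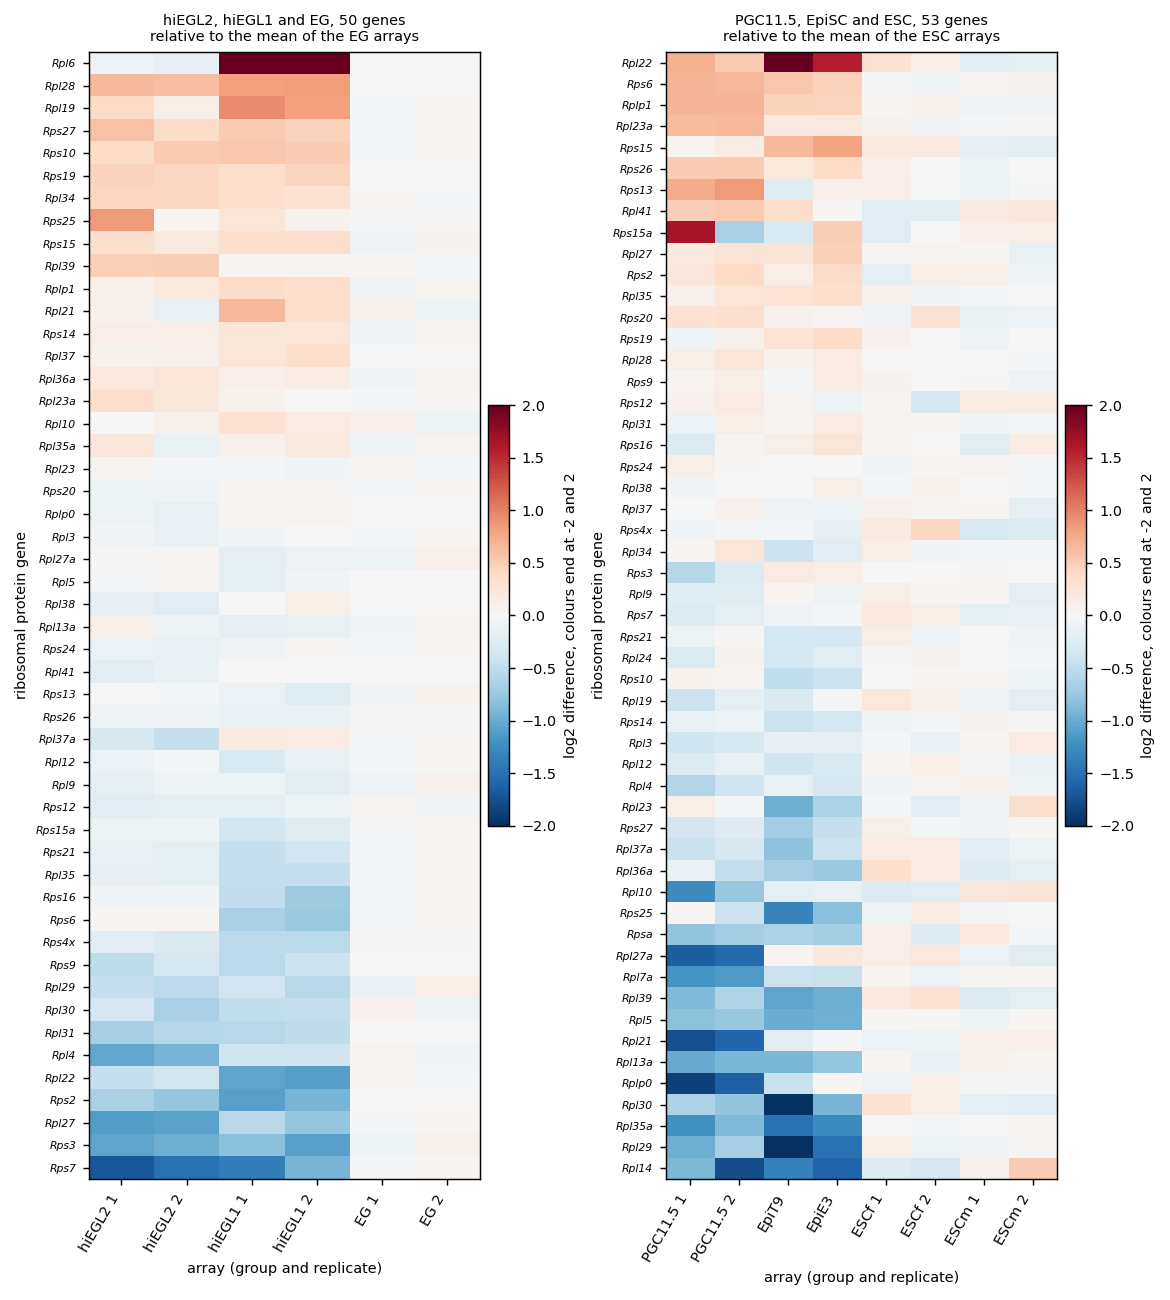
Log2 difference of each tested ribosomal protein gene (rows) on each array (columns) from the mean of the EG arrays (left, 50 genes) or of the ESC arrays (right, 53 genes), with genes ordered by their mean over the other groups and colours ending at −2 and 2. The most saturated cells are few, such as Rpl6 in hiEGL1 and Rps7 in hiEGL2 on the left, and Rpl22 in EpiSC and Rplp0 in PGC11.5 on the right.

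EpiSC, which model the epiblast after implantation, were compared with ESC, which model the epiblast before it. Of 53 measured members 10 rose and 19 fell in EpiSC (54.7%), where 58% of 8391 genes were called, 31.9% higher and 26.1% lower. At 2-fold or more, on the same footing as above and by the probe used for each, 1 member rose and 6 fell, against 27% of all genes. Without the E3 sample 5 members rose. The share of all genes called without E3 is not given here. With both EpiSC samples the median difference was −0.10 over the members and 0.09 over all genes. Rpl22 rose most: it read 11.34 in T9 and 10.79 in E3, against means of 9.43 ± 0.103 in ESCf and 9.01 ± 0.00998 in ESCm (SD, n = 2 each). The log2 difference was 1.85 ± 0.0943 (SE, adjusted p = 3.31e-05), with both EpiSC lines above every ESC sample. Its paralog Rpl22l1, whose messenger RNA the Rpl22 protein is known to repress in mice, fell by 3.61. In PGC11.5 against ESC, where Rpl22 rose too, Rpl22l1 fell by 4.21. In PGC11.5 against EpiSC, where Rpl22 was called lower, Rpl22l1 had no call. A link between these genes was not tested. Rps15 read 12.77 in T9 and 12.92 in E3, against 12.32 and 12.31 in ESCf and 11.96 and 11.92 in ESCm, a difference of 0.72. Rps6 (0.50), the stalk gene Rplp1 (0.45), Rpl27 (0.37) and Rps19 (0.32) rose by less.

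In the large subunit 13 of 32 genes fell and 6 rose (59.4% called), and in the small subunit 6 of 21 fell and 4 rose (47.6%), against 58% of all genes. Rpl29, a protein whose loss makes mice small, read 10.31 in T9 and 10.93 in E3, against 12.55 and 12.33 in ESCf and 12.37 and 12.45 in ESCm. The difference was −1.80 ± 0.113 (SE, adjusted p = 6.77e-05), and its second probe fell by 4.46. Rpl5 read 13.02 in T9 and 13.07 in E3, against 14.06 and 14.04 in ESCf and 13.92 and 14.07 in ESCm, a difference of −0.98. No EpiSC sample overlapped the ESC samples for either gene. Rpl30 (by 1.45), Rpl35a (by 1.39), Rps25 (by 1.08), Rpl39 (by 1.01) and Rpl13a (by 0.84) fell too. Rpl14 was detected on all 4 ESC arrays and neither EpiSC array, and was at least 2.38-fold lower (adjusted p = 0.00532). Rpsa, the laminin receptor, was detected on 3 of 4 ESC arrays and neither EpiSC array, and was at least 1.19-fold lower, with the background-level value of 1 ESC array in the mean. Rpl24, the gene mutated in belly spot and tail mice, differed by −0.29 (adjusted p = 0.0517), and Rpl3, Rpl10, Rplp0 and Rps4x by −0.17, −0.18, −0.22 and −0.10 with no call.

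Around the ribosome, 31 of 53 assembly genes fell in EpiSC and 3 rose, led by Nop14 (by 2.52) and Tsr1 (by 2.16), and Rrs1, undetected in EpiSC, was at least 3.60-fold lower. Of 8 paralogs 4 fell and 1 rose, among them Rpl39l, a paralog of Rpl39 known for its expression in germ cells of the testis (at least 5.14-fold lower). Translation factors went both ways, with 13 up and 16 down of 40. Beside these lists, 31.9% of all genes were called higher and 26.1% lower.

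PGC11.5 were compared with ESC and with EpiSC, which addresses how germ cells taken from the embryo differ from cultured pluripotent cells. Against ESC, 11 members rose and 23 fell of 53 (64.2%, against 64.5% of all genes), 5 of the falls and no rise being at least 2-fold with undetected groups at their bound, against 31.3% of all genes. All 5 were of the large subunit, in which 19 of 32 genes fell and 6 rose, while 4 of 21 small subunit genes fell and 5 rose. These counts rest on the probe used for each gene. The other probes of Rps9 and Rps24, both of the small subunit, were more than 2-fold lower in PGC11.5 than in ESC, as given further below. Over all genes 32.3% fell and 32.2% rose. Scaling to a common median moved the median of all genes to 0.49 log2 units and the share of higher calls from 49.9% to 66%, and raised the members that rose to 19. Under the random block 15 members fell and 6 rose, and the share of all genes under that fit is not given here. With 1 PGC11.5 sample left out 23 or 24 fell, and without ESCm replicate 2, 7 rose.

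Rplp0 read 8.18 and 8.41 in PGC11.5, against 9.98 and 10.19 in ESCf and 10.02 and 10.02 in ESCm. The difference was −1.76 ± 0.110 (SE, adjusted p = 4.13e-05), with both PGC11.5 samples below every ESC sample, and its second probe, undetected in PGC11.5, was at least 3.73-fold lower. Its stalk partner Rplp1 went the other way, at 14.63 and 14.63 in PGC11.5, against 13.97 and 14.03 in ESCf and 13.89 and 13.88 in ESCm, a difference of 0.68. Both PGC11.5 values stand at the top of the quantile scale, which caps the difference, and over the alternatives it was 0.56 to 2.06. Rpl27a read 8.35 and 8.45 in PGC11.5, against 10.13 and 10.20 in ESCf and 9.88 and 9.78 in ESCm, a difference of −1.60. Rpl7a fell by 1.16, Rpl35a by 1.05, Rpl10 by 1.02 and Rpl13a by 0.97. Rpl21 was detected on neither PGC11.5 array and was at least 1.27-fold lower than in ESC. Rpl14 was undetected there too, and was at least 1.27-fold lower. Both had no call under scaling to a common median. Rpsa, counted among the falls, was undetected there and has no bound above 1.

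Members that rose were led by Rps13, at 13.59 and 13.69 in PGC11.5, against 12.98 and 12.83 in ESCf and 12.75 and 12.81 in ESCm, a difference of 0.79 ± 0.0733 (SE, adjusted p = 0.000177). Rps6 (0.67), Rpl23a (0.64), Rpl22 (0.62), Rps26 (0.52) and Rpl41 (0.51) rose as well. Rps4x, Rpl38, Rps19 and Rpl24 differed by −0.04, −0.04, −0.0026 and −0.10 with no call. Under scaling to a common median Rps4x and Rpl38 read higher in PGC11.5.

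Against EpiSC, 15 members rose in PGC11.5 and 9 fell (45.3%), where 51.7% of all genes were called, 23.5% higher and 28.2% lower. At 2-fold or more, with undetected groups at their bound, 3 members fell and none rose, against 24.1% of all genes. Rpl29 (0.98), Rps25 (0.88), Rps13 (0.86) and Rpl23 (0.85) rose most, and Rpl27a (by 1.72), Rplp0 (by 1.54) and Rpl22 (by 1.23) fell most among members detected in both groups. Rpl21 was again undetected in PGC11.5 and at least 1.18-fold lower. Scaling to a common median moved the median of all genes to 0.44 and the share of higher calls from 45.4% to 65.4%, and called 25 members higher. Without the T9 sample, and likewise under the random block, 7 members were higher. The shares of all genes under those fits are not given here. The comparisons among PGC11.5, EpiSC and ESC share samples.

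In PGC11.5 against ESC 27 of 53 assembly genes fell and 11 rose, led by Ddx21 (by 3.13). Of 20 measured genes of the control list 12 rose and 2 fell. Mtor was higher by 3.25, and Eif4ebp1, the translation repressor that mTOR inactivates, fell by 2.26. Of 40 translation factors 19 fell and 9 rose, led by Eif3k (by 2.65), Eif2s2 (by 2.54) and Pabpc1 (by 2.49). Beside these lists, 32.2% of all genes were called higher and 32.3% lower. Of 10 measured germ cell markers 8 were called higher and 2 lower in PGC11.5 than in ESC. Ddx4 was detected on 2 of 2 PGC11.5 arrays and on none of the ESC or EpiSC arrays. Dppa3, Dazl and Dnd1 were detected on 2 of 2 PGC11.5 arrays but also on 4 of 4 ESC arrays. Blood, endothelial and macrophage markers, globins among them, summed to 60760 in PGC11.5 replicate 1 and 3059 in replicate 2, with 4 of 10 detected in each. They summed to 159 to 295 in ESC and 87 to 88 in EpiSC, with 2 and 1 to 2 detected. Hba-a1 was detected on 2 of 2 PGC11.5 arrays and 1 of 2 EpiSC arrays. The part of blood cells in the ribosomal protein differences was not tested.

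**Figure D3:**
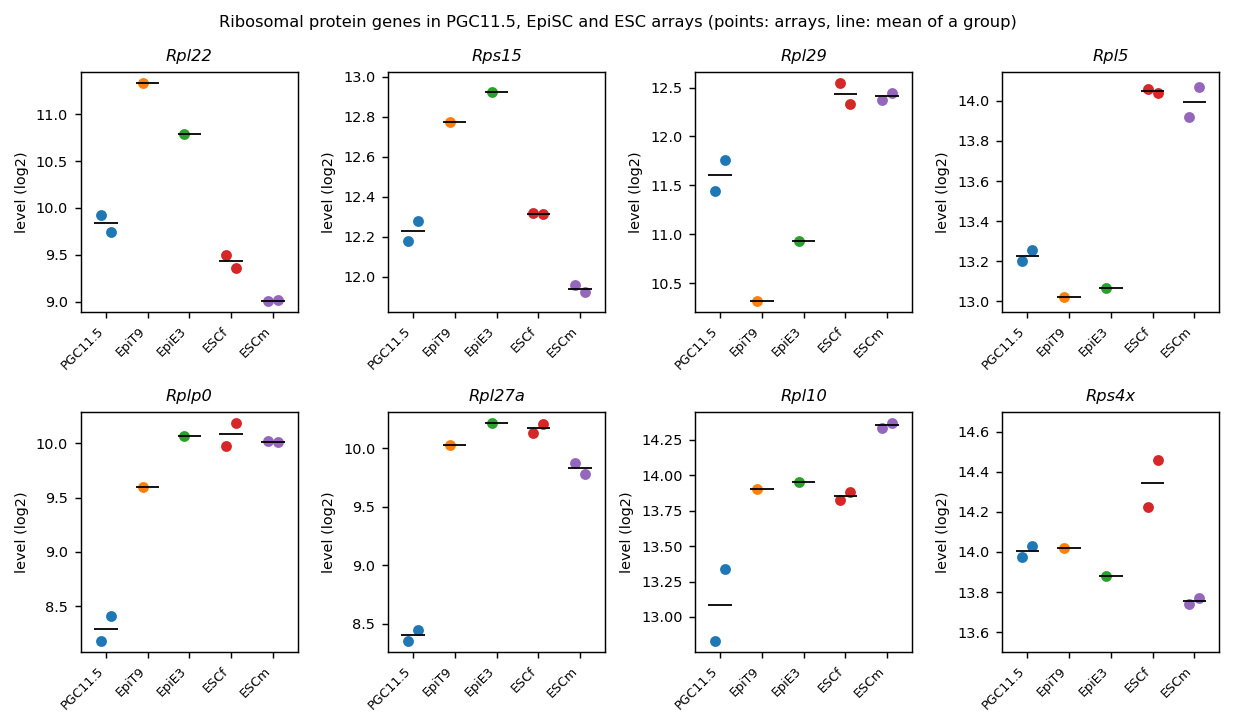
Level (log2) of 8 ribosomal protein genes on each PGC11.5, EpiT9, EpiE3, ESCf and ESCm array, with points for arrays and a line for the mean of a group. Rpl22 and Rps15 are highest in the EpiSC lines, Rpl29 lowest there, Rplp0 and Rpl27a lowest in PGC11.5, and Rps4x and Rpl10 differ in opposite directions between ESCf and ESCm; each panel has its own axis.

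ESCf and ESCm differed least. The Y-linked gene Eif2s3y went with the labels, at 4.41 and 4.34 in ESCf and 9.02 and 8.94 in ESCm. Of 53 members 2 rose and 1 fell in ESCf (5.66%), where 7.56% of all genes were called, 4.58% higher and 2.98% lower. Rps4x rose by 0.59 (adjusted p = 0.0177 by limma) and Rps15 by 0.37, and Rpl41 fell by 0.41. No member was called at 2-fold or more, against 3.28% of all genes. With any 1 of the 4 ESC samples left out no member was called. A fit without the PGC11.5 arrays, added after seeing the data because that pair of replicates differed most, called 10 members higher and 4 lower. The 7.56% of all genes belongs to the fit with those arrays. The share of all genes under the fit without them is not given here, so these counts cannot be set against it.

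Rps4x, Rpl39, Rpl36a and Rpl10 are X-linked, a group picked after their values were seen. Rps4x read 14.23 and 14.46 in ESCf, against 13.74 and 13.77 in ESCm. Rpl39 read 14.31 and 14.40 in ESCf, against 13.85 and 13.92 in ESCm, and Rpl36a read 13.02 and 12.86 in ESCf, against 12.45 and 12.51 in ESCm. Rpl10, which joins the large subunit late in its maturation, read 13.82 and 13.88 in ESCf, against 14.34 and 14.37 in ESCm, a difference of −0.50 (adjusted p = 0.117). The female samples were thus the higher pair for 3 of 4 of these genes and the lower pair for Rpl10. Over 287 X-linked genes tested the median difference was 0.50, with 63 called higher and 1 lower in ESCf, and over 8098 autosomal genes it was −0.04. The 49 autosomal members had a median of 0.05. The paralogs Rpl39l and Rps3a1 were higher in ESCf by 1.83 and 0.85.

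Different probes of one gene did not always move together. Of 12 members with at least 2 probes tested on the PGC11.5, EpiSC and ESC arrays, 6 had calls in one direction by several probes in PGC11.5 against ESC and 2 in EpiSC against ESC, with the others called by fewer than 2 probes. These counts include calls of probes that a group did not detect. Rps9 has 2 probes, and the one used for hiEGL and EG read 12.66 and 12.80 in hiEGL2 and 12.62 and 12.74 in hiEGL1, against 13.16 and 13.15 in EG, a called fall of 0.45, while the other differed by −0.07 with no call. On the remaining arrays the first of these probes read 11.02 and 11.02 in PGC11.5, 11.15 in T9 and 11.45 in E3, against 13.62 and 13.65 in ESCf and 13.64 and 13.69 in ESCm. It was lower by 2.63 in PGC11.5 than in ESC and by 2.35 in EpiSC than in ESC. The second probe read 13.33 and 13.39 in PGC11.5, 13.23 in T9 and 13.45 in E3, against 13.35 and 13.28 in ESCf and 13.30 and 13.18 in ESCm, with differences of 0.08 and 0.06 and no call. The dimmer probe of Rps24 fell by 2.03 in PGC11.5 and by 1.12 in EpiSC, against differences of 0.07 and 0.0016 by the brighter probe. Rpl29 was lower by both probes in EpiSC, but in PGC11.5 its second probe differed from ESC by 0.06, against −0.82 by the first. Rplp0 was lower by both probes in PGC11.5, but in EpiSC its second probe, undetected there, was at least 6.99-fold lower than in ESC, against −0.22 by the first with no call. The second probe of Rpl27a was detected on the ESC arrays alone and has no bound above 1 for PGC11.5. Rps9, Rps24 and Rpl23 were chosen here after their values were seen. What each probe reads, a transcript variant or a related sequence, was not tested.

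**Figure D4:**
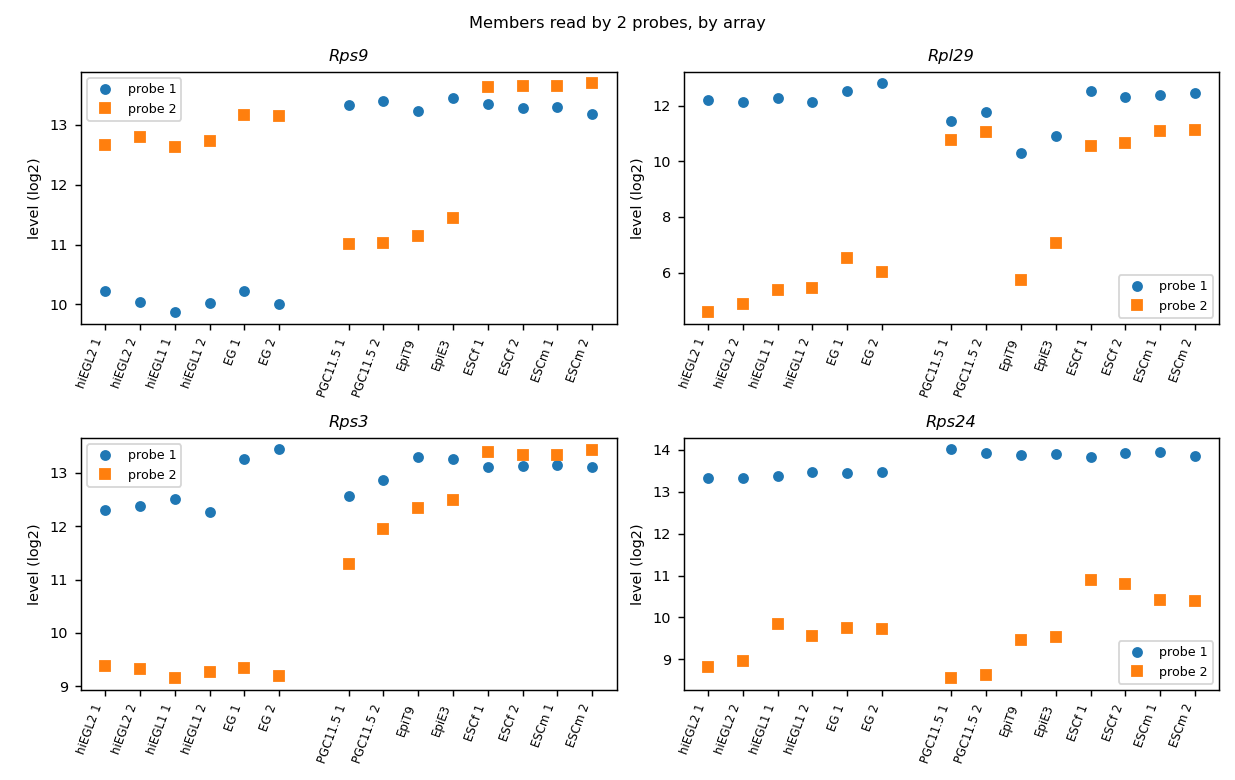
Level (log2) by each probe of Rps9, Rpl29, Rps3 and Rps24 on each array, with hiEGL2, hiEGL1 and EG on the left and PGC11.5, EpiSC and ESC on the right. One Rps9 probe is about level across PGC11.5, EpiSC and ESC while the other is lower by 2.63 and 2.35 in PGC11.5 and EpiSC than in ESC; levels of different probes are not comparable.

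Set against all genes, most members differed little. By the probe used, each of 50 members in hiEGL against EG had a fitted difference between −1.37 and 1.09. These values lie within the middle 90% of all genes tested (−1.87 to 2.25). In PGC11.5 against ESC the members ranged from −1.76 to 0.79, and the middle 90% of all genes from −2.45 to 1.79. Rpl22 lay outside that range in EpiSC against ESC. By fitted difference so did Rpl6 in the comparisons with hiEGL1, but its bounds, at least 1.97-fold against EG and 1.70-fold between the lines, lay within it. Many members are bright. Of 212 genes with a mean level of at least 12, 80.2% were called in hiEGL against EG and 24.5% were called at 2-fold or more by fitted difference, against 64% and 0 of the 25 members among them. The gap was smaller for the other arrays. Of 189 such genes there, 6.88% were called at 2-fold or more in EpiSC against ESC, against 5% of 40 members. The median absolute difference was 0.29 for both. In PGC11.5 the 2-fold shares were 9.52% and 7.5% against ESC, and 8.47% and 0 against EpiSC.

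**Figure D5:**
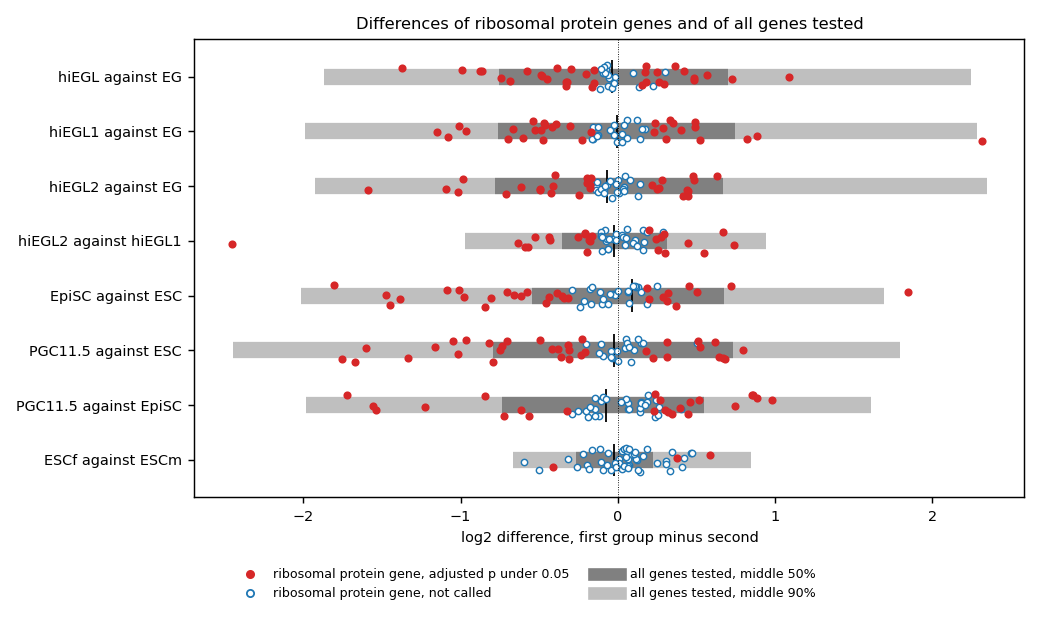
Log2 difference of each ribosomal protein gene (points, filled where the adjusted p was under 0.05) in 8 comparisons, first group minus second, over the middle 50% and 90% of all genes tested (bars, with a tick at the median). Most points lie within the bars, apart from Rpl22 in EpiSC against ESC and the fitted differences of Rpl6 where hiEGL1 takes part, which set it against arrays that did not detect it.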

How the data were processed

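Bead array data of 14 samples were taken from the deposited table of raw probe intensity values, which gives a detection p-value per probe and array. The submitters' processing notes name BeadStudio 3.2, RMA and lumi, in no stated order. The labels describe a transcription of 18 h and a second amplification of 12 h for every sample. The authors' deposited log2 values served as an alternative. Of 25697 probes, 23978 had 1 gene, 0 several and 1719 none.

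Intensities were background-corrected with the detection p-values, with an offset of 16, quantile-normalized over all arrays and put on a log2 scale (neqc, limma 3.58.1, R 4.3.3). In each of the 2 array sets the probe with the highest mean level stood for a gene, which was tested when at least 2 arrays detected that probe. Groups were compared with lmFit and eBayes with trend (3 residual degrees of freedom), and lines were weighted equally. The single arrays of T9 and E3 take their spread from the other groups. Array number limits the precision.

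Members, lists and alternatives were chosen with earlier results of these data known. Named members came from the 8 largest called rises and falls of a comparison and a fixed set of central members, and other lists give their 3 largest called changes, with exceptions stated. Alternatives changed the background correction, the normalization, the filter, the probe choice, the fold threshold, the blocks and the samples. Replicate numbers did not pair the samples (deviations correlated between −0.0213 and 0.0343). Figures were drawn with matplotlib 3.10.9 in Python 3.11.15.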

Additional observations from a re-analysis of the deposited data

Results flagged for a closer look

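The lines hiEGL2 and hiEGL1 had differences from EG of opposite sign for 5 members, with the lines themselves called different. For each member only 1 of the differences from EG was called, so no member had opposite calls. For Rpl6 the sign in hiEGL2 is that of background against background, since neither hiEGL2 nor EG detected it, and it was at least 1.70-fold lower in hiEGL2 than in hiEGL1 (adjusted p = 3.46e-08). Rps6 differed from EG by 0.04 in hiEGL2 and −0.70 in hiEGL1, and the lines by 0.74 (hiEGL2 minus hiEGL1). Rpl37a differed by −0.40 and 0.17, and the lines by −0.57. Rpl21 differed by −0.04 and 0.49, and the lines by −0.53, a call lost without hiEGL1 replicate 1 (adjusted p = 0.0870). Rpl38 differed by −0.20 and 0.06 by its brighter probe, and the lines by −0.25. The mean of its probes was called lower in hiEGL1 than in EG (−0.54), so the opposite sign rests on the probe used. No group holds enough samples for a search for single outlying samples.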

How the results depend on the processing

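Counts of members called in the more frequent direction are given in the order hiEGL, hiEGL1 and hiEGL2 against EG, hiEGL2 against hiEGL1, EpiSC against ESC, PGC11.5 against ESC, PGC11.5 against EpiSC and ESCf against ESCm. They were 19, 18, 17, 14, 19, 23, 15 and 2. A 2-fold threshold on fitted differences left 1, 3, 3, 1, 6, 7, 0 and 0. The line as a random block left 4 for hiEGL against EG, 15 for PGC11.5 against ESC and 7 for PGC11.5 against EpiSC. Scaling to a common median gave 9 for hiEGL2 against hiEGL1, 25 for PGC11.5 against EpiSC and 6 for ESCf against ESCm. No filter gave 1 for ESCf against ESCm, and 8 lower and 9 higher members for hiEGL2 against hiEGL1. For ESCf against ESCm no background correction gave 4, the authors' values 4, and one fit of 8 groups 8. The fit without the PGC11.5 arrays, chosen after seeing the data, gave 10 higher and 4 lower, with no share of all genes under that fit beside them. Without single samples the counts were 16 to 19, 18 to 21, 14 to 16, 9 to 13, 16 to 19, 18 to 24, 7 to 18 and 0 in each case, and in the last comparison 6 to 7 of all genes were then called. Apart from that comparison, shares of all genes under the alternatives are not given beside these counts. A shift can therefore not be read as particular to the members. The cause of these shifts was not tested.

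The shared replicate numbers did not pair the samples. With the replicate block the counts were 19 for hiEGL against EG, 17 for hiEGL1 and 17 for hiEGL2 against EG, 22 for PGC11.5 against ESC, 2 for ESCf against ESCm and 14 for hiEGL2 against hiEGL1. No paired analysis was possible for the EpiSC comparisons because T9 and E3 have 1 sample each.

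Among results for single members, 2326 kept direction and side of the threshold, 104 lost a call, 37 gained one and 15 changed sign with a call under at least 1 setting. A further 29 changed sign with no call under either setting, at differences of at most 0.22. Scaling to a common median changed the sign for Rpl3 in hiEGL against EG (0.16), hiEGL2 against EG (0.24) and hiEGL2 against hiEGL1 (0.17), for Rpl5 in hiEGL2 against EG (0.23) and for Rps7 in hiEGL2 against hiEGL1 (0.29). In PGC11.5 against ESC it did so for Rpsa (1.13), Rps4x (0.51) and Rpl38 (0.69), and against EpiSC for Rpl21 (0.073), Rpsa (1.70) and Rpl38 (0.49). The mean of a gene's probes changed the sign for Rpl38 in hiEGL1 against EG (−0.54), EpiSC against ESC (−0.39) and PGC11.5 against EpiSC (0.36), and for Rps19 in EpiSC against ESC (−0.17). Members near background, such as Rps7, Rpl6, Rpl14, Rpl21 and Rpsa, have bounds only.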
